A study of Mus musculus with 6 samples.

Results

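Erythroid and platelet transcripts were followed in sorted microglia with and without the transcription factor Bhlhe41. The members were 8 genes, and all probes assigned to them by transcript accession were used whatever their values. They are the alpha globins *Hba-a1* and *Hba-a2*, the erythroid genes *Alas2*, *Slc4a1* and *Ahsp*, and the platelet genes *Ppbp*, *Gp9* and *Itga2b*. Of these, 7 had a probe, 8 probes in all, and these 7 genes stand among 23462 named genes on the array. *Ahsp* was not analysed here. The samples were microglia from the brains of 3-month-old mice, enriched on Percoll and sorted as CD45low CD11b+ Cx3cr1+ cells. The control group, Bhlhe41 dTomato-Cre/+ (here B41HET, 3 samples), carries 1 copy of an allele with a dTomato and Cre cassette in *Bhlhe41*, so the cassette is present in both groups. The deficient group, Bhlhe41 dTomato-Cre/dTomato-Cre (here B41KO, 3 samples), carries 2 copies. Per the study's methods its mice were kept on a C57BL/6 background. The labels call the samples biological replicates and give 3 mice per genotype, whereas the study's methods state that each sample was pooled from several mice. If the methods hold, the spread between samples is one between pools and not between animals.

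Red cells carry haemoglobin, a tetramer of alpha and beta globin chains that each hold a haem group. Immature red cells make globin under erythroid transcription factors such as Gata1 and Klf1 and keep globin RNA for some time after the nucleus is lost. Platelets are shed by megakaryocytes, which share a progenitor and several transcription factors with the erythroid lineage, and they carry RNA for adhesion receptors and granule chemokines. In brain tissue both kinds of transcript are known mainly from blood within vessels, and the sorting gate used here selects for microglial surface markers.

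The promoters of the globins, *Alas2* and *Gp9* are shown because the probes of these genes gave the clearest differences in either direction. They are the 200 bases before the transcription start in RefSeq on GRCm38.p6, written 5′ to 3′ on the strand of the gene. Capitals mark 4 short motifs searched on both strands: GATAA (or TTATC), the core of a GATA factor site, CACCC (or GGGTG), bound by Klf1 and related factors, CCAAT (or ATTGG), and TATAA (or TTATA). No 2 motifs overlapped in these windows.
*Hba-a1* promoter (chr11:32283472-32283671, plus strand): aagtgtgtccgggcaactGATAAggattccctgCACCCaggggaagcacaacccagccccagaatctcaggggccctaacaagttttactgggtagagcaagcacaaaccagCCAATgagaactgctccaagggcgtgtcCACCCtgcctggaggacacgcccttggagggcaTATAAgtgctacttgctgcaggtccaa
*Alas2* promoter (chrX:150547217-150547416, plus strand): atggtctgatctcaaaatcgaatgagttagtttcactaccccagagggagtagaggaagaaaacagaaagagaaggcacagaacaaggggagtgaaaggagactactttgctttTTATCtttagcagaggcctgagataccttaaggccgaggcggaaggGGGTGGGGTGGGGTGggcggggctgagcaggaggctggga
*Gp9* promoter (chr6:87777870-87778069, plus strand): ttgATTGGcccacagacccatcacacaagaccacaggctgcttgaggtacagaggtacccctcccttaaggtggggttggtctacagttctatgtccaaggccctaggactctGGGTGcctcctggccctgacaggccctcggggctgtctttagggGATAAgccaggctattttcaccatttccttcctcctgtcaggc
*Hbb-bt* promoter (chr7:103813924-103814123, minus strand): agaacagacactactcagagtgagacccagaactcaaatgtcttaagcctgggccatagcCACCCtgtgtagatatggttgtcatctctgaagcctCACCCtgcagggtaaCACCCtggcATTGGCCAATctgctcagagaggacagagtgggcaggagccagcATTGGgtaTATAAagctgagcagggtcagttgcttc

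Promoters were found for 6 of the 8 members. The windows of *Hba-a1* and *Hba-a2* shared an identical run of 297 bases out of 300, displaced by 3 bases, so both carry the same motifs, and only that of *Hba-a1* is printed. In *Hba-a1* the GATAA began 182 bases before the start, the CCAAT 88 bases and the TATAA 27 bases. *Alas2* held TTATC at 86 bases and 3 adjoining copies of GGGTG, without CCAAT or TATAA. *Gp9* held GATAA at 43 bases, GGGTG at 87 bases and ATTGG at 197 bases. In *Hbb-bt*, a beta globin on the opposite strand of chromosome 7, CACCC and CCAAT each occurred 3 times and TATAA once, and GATAA did not occur. Among 32851 promoters of the same length, 18.1% held GATAA, 45.5% CACCC, 29.3% CCAAT and 18.5% TATAA. The palindrome CACGTG, an E-box of the kind that Bhlhe41 and related factors bind, was found in 5.26% of promoters and in none of the 6 member windows. These matches describe the letters only.

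Each sample was hybridised to 1 array in 1 colour, and all 6 arrays lay on 1 slide. On each array, 70.1% to 75.5% of 56605 probes were well above background by the scanner software, and no spot was saturated. Row 1 of that slide held the 3 B41HET arrays with B41KO replicate 1, and row 2 held B41KO replicates 2 and 3. *Bhlhe41* itself was not lower in B41KO, with levels of 7.95, 7.87 and 7.65 in B41HET and 8.56, 7.84 and 8.21 in B41KO (log2 fold change 0.38, SE 0.20, adjusted p = 0.330 by limma), and its other probe was higher in all B41KO samples (0.33, adjusted p = 0.203 by limma), so it does not serve as a check of the labels here. All 12 microglia markers were well above background on all 6 arrays. By the rule for calls given below, 1 of them, *Fcrls*, was called lower (by 0.76 on the log2 scale) and 0 higher, against 4.01% and 1.44% of all genes, and by limma's unadjusted p under 0.05 there were 4 lower and 2 higher. The call of *Fcrls* was lost with the slide row or the replicate number as a block.

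Levels below are log2 intensities after quantile normalization, and a log2 fold change is the mean of B41KO minus that of B41HET. Calls required that limma's adjusted p, over 56601 probes, did not exceed 0.05 and that the means differed by at least 0.5 on the log2 scale. By this rule 3 of the 8 member probes were called higher in B41KO and 0 lower, against 1.72% and 3.34% of all probes. Those shares are 975 and 1892 probes, and 1305 and 1523 were called when arrays were aligned at their 75th percentile and not quantile normalized, a setting that moved the median log2 fold change of all probes from 0.02 to 0.13. The 3 probes belonged to *Hba-a1*, *Hba-a2* and *Alas2*. By limma's unadjusted p under 0.05, 1 member probe was lower, that of *Gp9*. The B41KO samples all lay above the B41HET samples for 4 member probes and all below for 1, where 14.5% and 15.2% of all probes did so. Where the brightest probe stood for each gene, 2 of 7 genes were called higher, against 1.44% of all genes, since the brightest *Hba-a1* probe was not called. The median log2 fold change of the 7 genes was 0.19, and that of all genes was 0.01. In RNA from bulk samples, more cells of a type and more RNA per cell cannot be told apart.

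**Figure D1:**
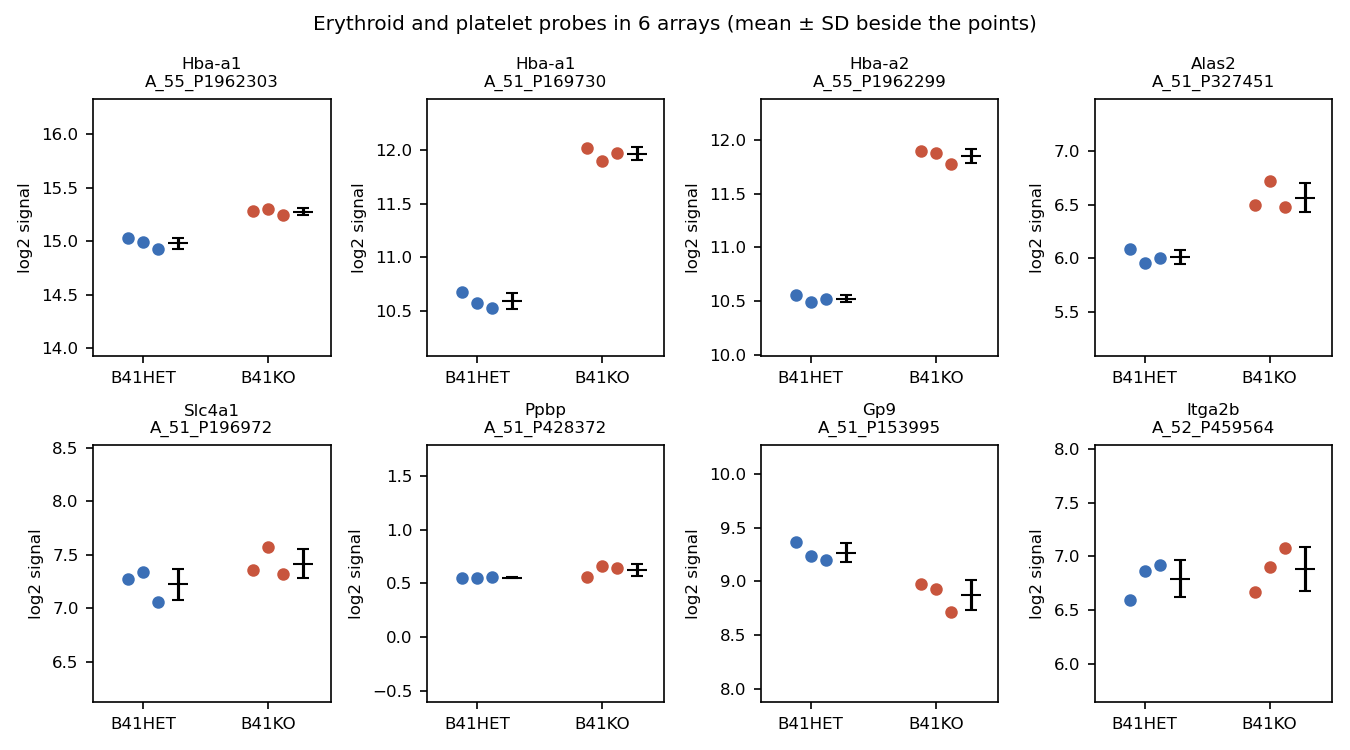
Level of each member probe (y axis, log2 intensity after quantile normalization) in the 3 B41HET (blue) and 3 B41KO (red) arrays, each point 1 array, with the mean and SD beside the points. Both *Hba-a1* probes, *Hba-a2* and *Alas2* lie higher in all B41KO arrays, *Gp9* lies lower, and *Ppbp*, at 0.55 to 0.67, was close to background throughout.

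The alpha globins are encoded by *Hba-a1* and *Hba-a2*, whose transcripts are nearly identical, so that a probe to one may also report the other. The dimmer of the *Hba-a1* probes, A_51_P169730, had levels of 10.67, 10.57 and 10.53 in B41HET and of 12.02, 11.90 and 11.97 in B41KO. The groups were 1.23 apart at their nearest samples, a gap many times the SD of 0.07 in B41HET and 0.06 in B41KO (n = 3 each). The log2 fold change was 1.37 (SE 0.08, 95% interval 1.18 to 1.56, adjusted p = 0.00185 by limma), a 2.59-fold higher mean. It ranked 168 from the highest among 56601 fold changes.

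The *Hba-a2* probe gave a like difference. Its levels were 10.56, 10.49 and 10.52 in B41HET and 11.90, 11.88 and 11.78 in B41KO, so that every B41KO sample was at least 1.22 above every B41HET sample. The log2 fold change was 1.33 (SE 0.07, 95% interval 1.16 to 1.51, adjusted p = 0.00174 by limma), a 2.52-fold higher mean.

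The brighter *Hba-a1* probe, A_55_P1962303, was analysed in the same way. Its levels were 15.03, 14.99 and 14.93 in B41HET and 15.28, 15.30 and 15.25 in B41KO. The groups did not overlap, with a gap of 0.22, but the difference was smaller than at the dimmer probe and was not called (log2 fold change 0.30, SE 0.07, 95% interval 0.13 to 0.46, adjusted p = 0.0632 by limma). The probes of this gene thus disagreed on the size of the change and not on its direction, and their intervals did not overlap. Before normalization between arrays, the median processed intensity of the brighter probe was 35327, 35310 and 31337 in B41HET and 38997, 39927 and 35565 in B41KO. The cause of the disagreement was not tested. The mean over both *Hba-a1* probes was higher in B41KO by 0.84 (SE 0.07, adjusted p = 0.00385 by limma).

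The array carries 10 spots of each alpha globin probe, which show the technical error directly. After outlier spots were left out, 7 to 10 spots per array remained. At the dimmer *Hba-a1* probe single spots ran from 9.95 to 10.94 over the B41HET arrays and from 11.41 to 12.13 over the B41KO arrays. At *Hba-a2* they ran from 10.03 to 10.83 and from 11.60 to 12.06. No spot of either group overlapped with the other at these probes. At the brighter probe the ranges were 14.78 to 15.12 and 15.14 to 15.47, which also did not overlap but lay close together. Spots of 1 array are repeat measurements of 1 sample and were averaged before any test.

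**Figure D2:**
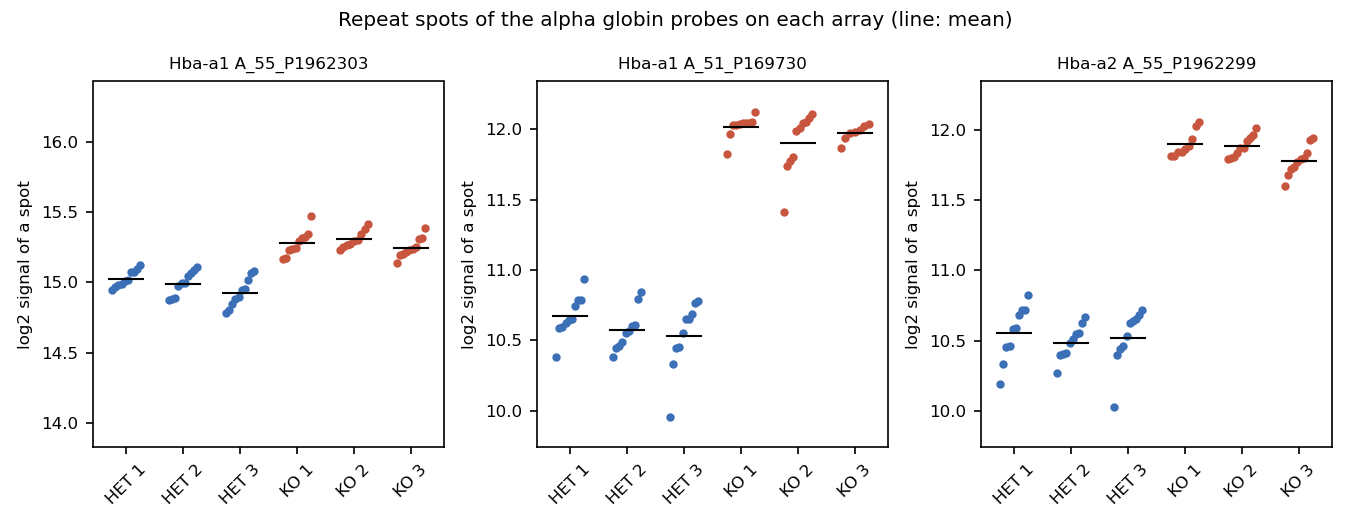
Single spots of the alpha globin probes on each array (y axis, log2 intensity after quantile normalization, sorted within an array), with the mean of each array as a line, B41HET in blue and B41KO in red. At the dimmer *Hba-a1* probe and at *Hba-a2* the B41KO spots start at 11.41 and 11.60, above the highest B41HET spots at 10.94 and 10.83.

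*Alas2* encodes the erythroid form of the enzyme that starts haem synthesis. Its probe had levels of 6.08, 5.95 and 6.0 in B41HET and 6.50, 6.72 and 6.48 in B41KO. The groups did not overlap and were 0.39 apart at their nearest samples. The log2 fold change was 0.55 (SE 0.09, 95% interval 0.32 to 0.79, adjusted p = 0.0312 by limma), or 1.47-fold, close to the fold threshold. The call was lost whichever of the 6 samples was left out, the log2 fold change then lying between 0.48 and 0.60 and the adjusted p by limma reaching 0.113.

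*Slc4a1* encodes band 3, the anion exchanger of the red cell membrane. Levels of 7.27, 7.34 and 7.06 in B41HET overlapped with 7.36, 7.57 and 7.32 in B41KO. The log2 fold change of 0.19 had a 95% interval of -0.09 to 0.47 and did not pass the test (SE 0.11, adjusted p = 0.390 by limma).

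Of the 3 platelet members, 0 were called higher and 0 lower, where 1.72% and 3.34% of all probes were. *Gp9* encodes a subunit of the glycoprotein Ib-IX-V receptor for von Willebrand factor. Its levels were 9.37, 9.24 and 9.20 in B41HET and 8.97, 8.93 and 8.71 in B41KO. All B41KO samples lay below all B41HET samples, by 0.23 at the nearest, and the log2 fold change of -0.40 passed neither the adjusted p nor the fold threshold (SE 0.10, 95% interval -0.65 to -0.15, adjusted p = 0.0811 by limma).

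*Itga2b* encodes the alpha subunit of the platelet fibrinogen receptor. Its levels were 6.60, 6.86 and 6.92 in B41HET and 6.67, 6.90 and 7.07 in B41KO, and the groups overlapped almost fully. The log2 fold change was 0.09 (SE 0.14, 95% interval -0.26 to 0.44, adjusted p = 0.766 by limma), and its sign changed when B41HET replicate 1 or B41KO replicate 3 was left out. *Ppbp* encodes a chemokine precursor stored in platelet granules. Its levels of 0.55, 0.55 and 0.56 in B41HET and of 0.56, 0.67 and 0.65 in B41KO were not well above background on any array, so no fold is given.

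Taken probe by probe, an exact two-sided permutation test over the 6 samples gave p = 0.1 for the 5 probes without overlap, the smallest p that 3 samples against 3 allow. On the row of the slide that held both genotypes, B41KO replicate 1 exceeded the mean of B41HET by 1.43 at the dimmer *Hba-a1* probe, 1.38 at *Hba-a2*, 0.49 at *Alas2* and 0.30 at the brighter *Hba-a1* probe. At *Gp9* the same difference was -0.29. These values rest on 1 B41KO sample.

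Other globins were set beside the alpha globins, each by its brightest probe. Of 10 further globin genes 9 had a probe, and 3 of them were called higher and 0 lower, against 1.44% and 4.01% of all genes. All 3 were adult beta globins. The median log2 fold change of the 9 genes was 0.04. Beta globin genes are also close copies of each other, so their probes may share signal. *Hbb-b1* and *Hbb-b2* are the adult genes of a haplotype other than that of C57BL/6, so the 3 calls are calls of 3 probes and are not evidence of 3 separate genes in these mice.

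*Hbb-bt* is an adult beta globin of the haplotype found in C57BL/6 mice. Its levels were 8.92, 9.04 and 8.79 in B41HET and 10.14, 10.35 and 10.35 in B41KO. The groups did not overlap, and the log2 fold change of 1.36 was near those of the dimmer *Hba-a1* and the *Hba-a2* probe (SE 0.10, adjusted p = 0.00447 by limma). The probe named for *Hbb-b1*, the major adult beta globin of the other haplotype, had levels of 8.94, 8.83 and 8.92 in B41HET and 9.58, 9.82 and 9.35 in B41KO (log2 fold change 0.69, SE 0.13, adjusted p = 0.0404 by limma).

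The probe named for *Hbb-b2*, the minor adult beta globin of that haplotype, was also called. Its levels were 12.23, 12.25 and 12.38 in B41HET and 12.93, 12.87 and 12.89 in B41KO (log2 fold change 0.61, SE 0.07, adjusted p = 0.0133 by limma). The groups did not overlap for any of these 3 genes. The embryonic globins *Hbb-y*, *Hbb-bh1* and *Hba-x*, the related *Hbb-bh2*, and the theta globins *Hbq1a* and *Hbq1b* were not called. *Hbb-bh1* was well above background on 0 B41HET arrays and 1 B41KO array, so no fold is given, and the others had log2 fold changes of -0.31 to 0.10. When B41HET replicate 1 or 2 or B41KO replicate 1 or 2 was left out, *Hbb-bt* alone of these genes was still called, 1 in place of 3. With the replicate number as a block 0 of the other globins were called.

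**Figure D3:**
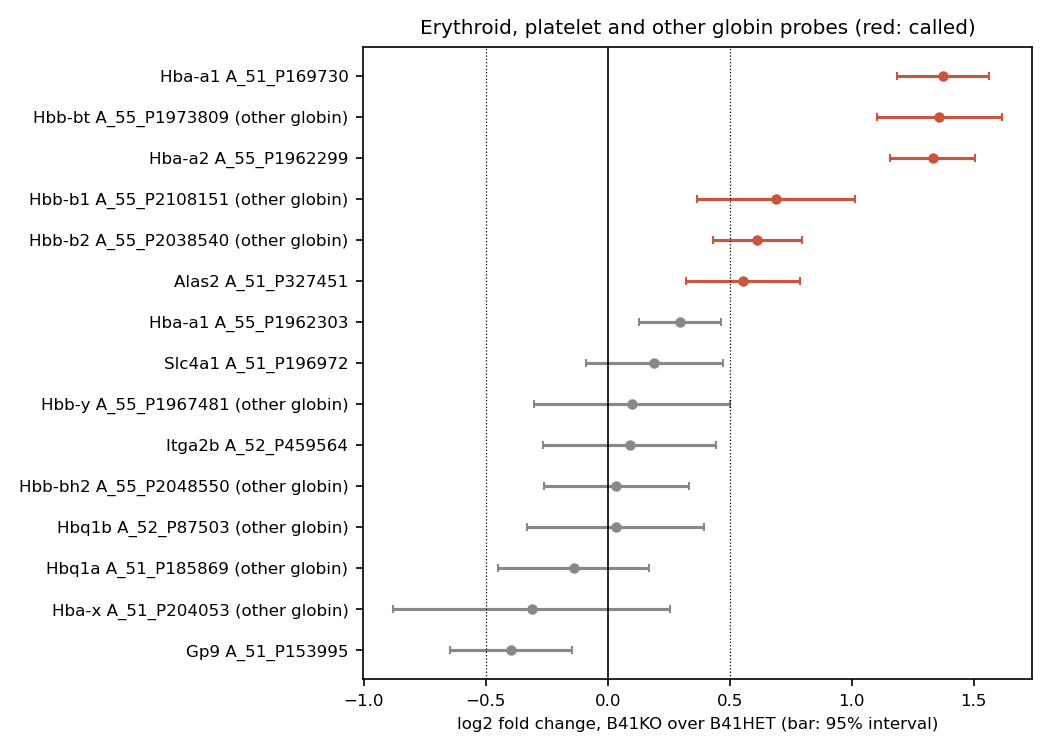
Log2 fold change of B41KO over B41HET (x axis) for the member probes and other globins, without *Ppbp* and *Hbb-bh1* (near background), with the 95% interval as a bar, called probes in red and the fold threshold as dotted lines. The called probes are the dimmer *Hba-a1* probe, *Hbb-bt*, *Hba-a2*, *Hbb-b1*, *Hbb-b2* and *Alas2*, at 1.37, 1.36, 1.33, 0.69, 0.61 and 0.55, and *Gp9* is at -0.40.

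Other genes of the red cell were described by the brightest probe of each gene, as were all lists that follow. Of 33 genes of the red cell membrane and of erythroid maturation, 0 were called higher and 2 lower, against 1.44% and 4.01% of all genes, 4 were not well above background on any array, and the median log2 fold change was -0.04. At limma's unadjusted p under 0.05 the counts were 4 higher and 3 lower. Both calls were lost with the slide row or the replicate number as a block, and 1 was lost without B41HET replicate 2. The 2 that fell were *Slc25a37*, the mitochondrial iron importer mitoferrin, and *Icam4*, the red cell LW antigen. *Slc25a37* had levels of 11.77, 11.72 and 11.60 in B41HET and 11.02, 11.00 and 10.99 in B41KO (log2 fold change -0.69, adjusted p = 0.0102 by limma), while its other two probes gave -0.08 and 0.08 and were not called. *Icam4* fell by 0.64 on the log2 scale (adjusted p = 0.00873 by limma). A probe of *Epor* that did not stand for the gene was also called lower (-0.51, adjusted p = 0.0221 by limma). The probe that stood for *Epor* gave -0.07 and was not called.

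*Epb42*, protein 4.2 of the red cell skeleton, was well above background on 1 of 6 arrays. *Hemgn*, an erythroid nuclear protein, had the brightest probe of the list at 16.81 ± 0.02 (SD, n = 3) in B41HET and 16.82 ± 0.11 in B41KO, but its other probe stayed near background on all 6 arrays. The next brightest, *Slc25a38*, a mitochondrial carrier that haem synthesis needs, had a log2 fold change of 0.09 (adjusted p = 0.726 by limma). *Epb42* was named after its values were seen.

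No other enzyme of haem synthesis was called higher. Of 8 further enzymes of the pathway, all above background, 0 were called higher and 1 lower, against 1.44% and 4.01% of all genes, with a median log2 fold change of 0.05, and by limma's unadjusted p under 0.05 there were 0 higher and 3 lower. The lower call was lost when any of the B41HET samples was left out, and without B41KO replicate 2. *Ppox*, which oxidises protoporphyrinogen, had levels of 11.68, 11.60 and 11.61 in B41HET and 11.00, 10.98 and 10.73 in B41KO (log2 fold change -0.73, adjusted p = 0.0171 by limma), but its other probe gave -0.06. *Alas1*, the form of the first enzyme used outside the erythroid lineage, had a log2 fold change of -0.47 that was not called (adjusted p = 0.0536 by limma), against 0.55 for *Alas2*. Dimmer probes of *Alas1* gave -0.32 and -0.05 and were not called.

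Genes for uptake and breakdown of haemoglobin and haem included 4 of 12 called lower and 0 called higher, against 4.01% and 1.44% of all genes, with a median log2 fold change of -0.15, and 1 was higher by limma's unadjusted p under 0.05. Over the settings the count called lower went down to 1, and to 0 with the replicate number as a block, and it was 2 without B41HET replicate 1 or 2 or B41KO replicate 2. The 4 were *Cd163*, the haemoglobin-haptoglobin receptor (-1.02, adjusted p = 0.00506), *Hp*, haptoglobin itself (-0.99, adjusted p = 0.00753), *Slc48a1*, a haem transporter of lysosomes (-0.69, adjusted p = 0.0114), and *Ftl1*, ferritin light chain (-0.51, adjusted p = 0.0255), all by limma. The other probe of *Slc48a1* gave 0.15 and that of *Ftl1* gave -0.07, and neither was called. *Lrp1*, a receptor for haem bound to haemopexin, and *Fth1*, ferritin heavy chain, the brightest of the list, had log2 fold changes of 0.11 and 0.14 and were not called. *Cd163* is also a marker of border macrophages, and *Hp* is also made by neutrophils. Of the markers of these cells 5 of 12 and 9 of 12 were called lower. The 5 include *Cd163* itself, and *Pf4* and *F13a1* of the platelet list below. The part of these cells in these values was not tested.

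Of 30 further platelet and megakaryocyte genes, 1 was called higher and 2 lower, against 1.44% and 4.01% of all genes, and 6 were higher and 6 lower by limma's unadjusted p under 0.05. Over the settings 0 to 1 were called higher and 0 to 4 lower, with 0 lower when B41HET replicate 1 or 3 or B41KO replicate 1 or 2 was left out and 1 lower without B41HET replicate 2 or B41KO replicate 3. Of the list 4 were not well above background on any array, and the median log2 fold change was 0.11. *Clu*, clusterin, which many cell types express, had levels of 7.39, 7.38 and 7.34 in B41HET and 7.93, 7.86 and 7.94 in B41KO (log2 fold change 0.54, adjusted p = 0.0134 by limma). *Pf4*, platelet factor 4, moved the other way with levels of 5.90, 5.65 and 5.70 in B41HET and 5.02, 5.21 and 4.87 in B41KO (log2 fold change -0.72, adjusted p = 0.0299 by limma). *F13a1*, the coagulation factor XIII subunit, had a log2 fold change of -1.92 (adjusted p = 0.0374 by limma), and it was well above background on 3 B41HET arrays and 1 B41KO array. *Pf4* and *F13a1* are also expressed by border macrophages and are counted in that list too. *Bin2* and *Sparc*, the brightest of the list, had log2 fold changes of -0.35 and -0.24 and were not called. By sign, 18 of the 30 genes had a log2 fold change above 0 and 12 below. *Gp6*, *Tubb1* and *Selp*, named after their values were seen, had log2 fold changes of 0.61, 0.43 and 0.54 and were not called. Another probe of *Selp* was called lower (-0.95, adjusted p = 0.0354 by limma).

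Among 15 transcription factors of the erythroid and megakaryocyte lineages, 0 were called higher and 2 lower, against 1.44% and 4.01% of all genes, with a median log2 fold change of -0.09, and 2 were higher by limma's unadjusted p under 0.05. Over the settings other than the replicate block 1 to 2 were called lower and 0 to 1 higher, and with that block 0 in either direction. *Nfe2*, a factor that megakaryocytes, erythroid cells and granulocytes use, had levels of 7.50, 7.43 and 7.54 in B41HET and 5.60, 5.71 and 5.46 in B41KO (log2 fold change -1.90, SE 0.09, adjusted p = 0.00138 by limma). *Gata2* was the other one called, but it was near background on all 6 arrays. *Ldb1* and *Lmo2*, the brightest of the list, had log2 fold changes of -0.15 and -0.18 and were not called. The dimmer probe of *Zfpm1* was called lower (-0.59, adjusted p = 0.0286 by limma), while its brightest gave -0.08 and was not called. *Klf1*, an activator of the adult globin genes, had a log2 fold change of 0.16 (adjusted p = 0.530 by limma) and *Gata1* of -0.09 (adjusted p = 0.868 by limma), both above background on all arrays and not called, and both were named after their values were seen.

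**Figure D4:**
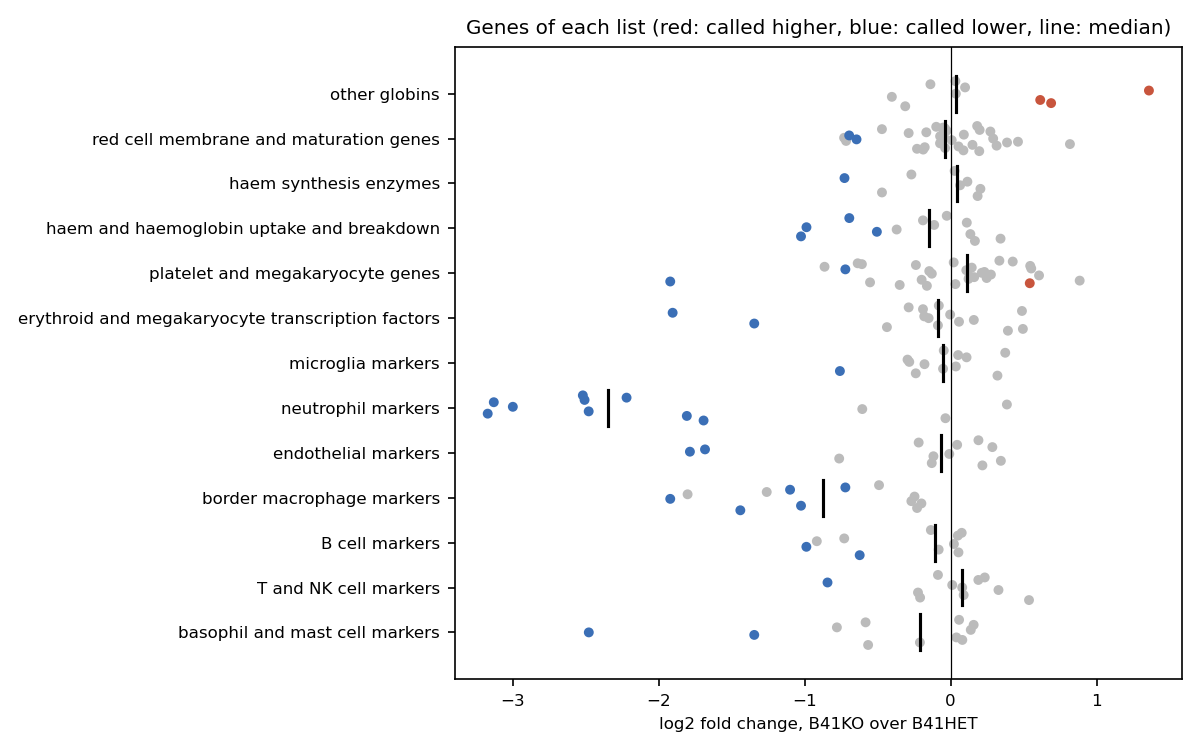
Log2 fold change of B41KO over B41HET (x axis) for each gene of the lists, by its brightest probe, with genes called higher in red, called lower in blue and the median as a black line, *Gata2* and *Hbb-bh1* near background included. Among the lists shown, calls of a higher level occur in the other globins, with 3 genes, and in the platelet list, with *Clu*, whereas the neutrophil list has a median of -2.35.

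Markers of other cells are given by the same rule, under which 4.01% of all genes were called lower and 1.44% higher. Of 12 neutrophil markers, 9 fell and 0 rose, and the summed intensity of the list on the log2 scale was 14.94 to 15.11 in B41HET and 12.61 to 12.70 in B41KO. Of the border macrophage markers 5 of 12 fell, or 1 to 7 over the settings other than the replicate block, with sums of 11.43 to 11.53 and 10.93 to 11.05. *Cd163*, *Pf4* and *F13a1*, already counted in lists above, are among these 5. Of the endothelial markers 2 of 12 fell, *Ly6c1* and *Pecam1*, with sums of 11.83 to 11.97 and 11.80 to 11.88 and 5 markers not well above background on any array, *Pecam1* and *Ly6c1* being expressed by leukocytes too.

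B cell, T and NK cell, and basophil and mast cell markers gave 2 of 10, 1 of 11 and 2 of 11 genes called lower and 0 higher, against 4.01% and 1.44% of all genes. The last 2 were *Hdc* and *Gata2*, which was near background on all 6 arrays and is also counted among the transcription factors. Over the settings other than the replicate block the counts called lower were 0 to 2, 0 to 1 and 1 to 3, and with that block 0. The sums of these lists, in the same order, were 10.61 to 10.78 against 10.62 to 10.66, 10.73 to 10.79 against 10.83 to 10.92, and 11.22 to 11.40 against 11.18 to 11.41. The corresponding sums over the 7 measured members, which the brighter *Hba-a1* probe dominates, were 15.03 to 15.13 in B41HET and 15.40 to 15.46 in B41KO. By limma's unadjusted p under 0.05, 1 neutrophil, 1 endothelial, 1 T and NK cell and 0 border macrophage, B cell or basophil and mast cell markers were higher. The part of these other cells in the globin difference was not tested.

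Across the 6 arrays, the genes whose pattern was most like that of the brighter *Hba-a1* probe were *Tspan31* (Pearson r = 0.998), *Lemd2* (0.998), *Atad3a* (0.997), *Etv4* (0.997) and *Leng8* (0.997), each by its brightest probe. Those most like *Gp9* were *Lin37* (0.998), *Pknox1* (0.998), *Zfp846* (0.997), *Zpr1* (0.997) and *Tceal1* (0.996). With 6 arrays in 2 groups such values are common: 428 of 17221 genes exceeded 0.95 for *Hba-a1* and 640 for *Gp9*.

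**Figure D5:**
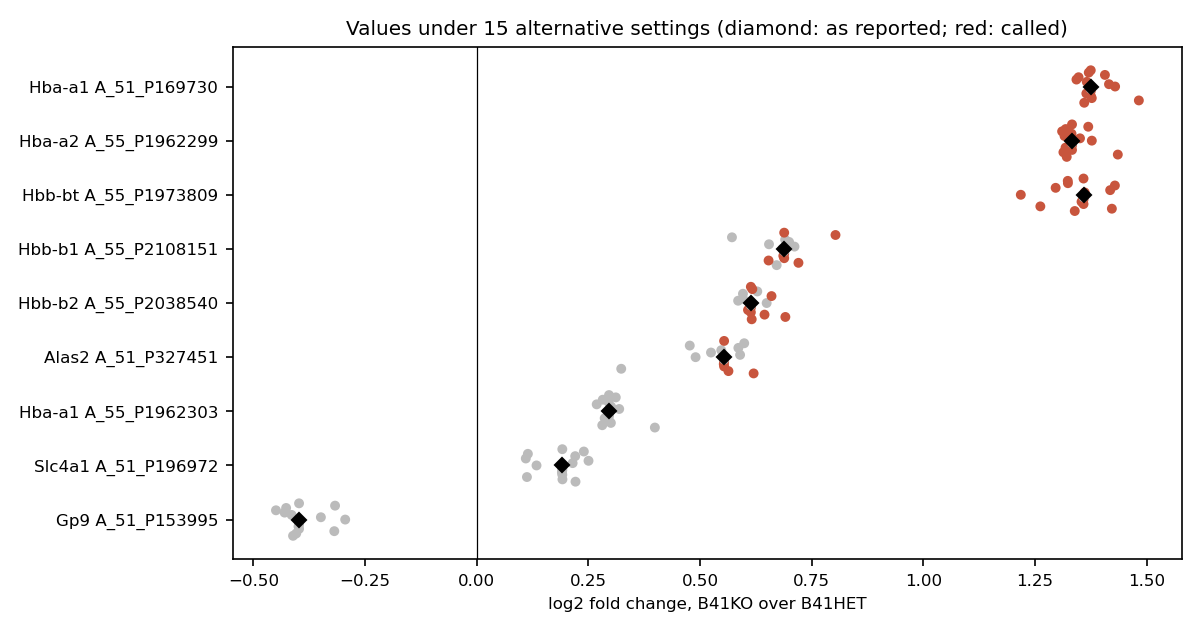
Log2 fold change of B41KO over B41HET (x axis) for 9 member and globin probes as reported (diamond) and under 15 other settings each (points, red where called). The dimmer *Hba-a1* probe, *Hba-a2* and *Hbb-bt* were called under 14 of 15 settings, *Hbb-b2* under 9, *Hbb-b1* under 7, *Alas2* under 6, and the brighter *Hba-a1* probe, *Slc4a1* and *Gp9* under none.

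Under these settings no called member or globin changed direction, and the smaller differences lost their call most often. The log2 fold change ranged from 1.34 to 1.48 at the dimmer *Hba-a1* probe, from 1.31 to 1.43 at *Hba-a2*, from 0.27 to 0.40 at the brighter *Hba-a1* probe, from 0.32 to 0.62 at *Alas2* and from -0.45 to -0.29 at *Gp9*. Only with the replicate number as a block were the first 2 of these not called.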

How the data were processed

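Sorted microglia of 3 B41HET and 3 B41KO samples were hybridised in 1 colour to SurePrint G3 Mouse arrays on a single slide. The authors deposited scanner output of Agilent Feature Extraction 11.5.1.1, whose intensity values are background-subtracted within each array, and a table of log2 values that was read as quantile normalized and used as an alternative. The study's methods name limma after quantile normalization.

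Control spots were left out (59305 of 62976 spots remained), as were 95 to 136 spots per array that carried an outlier flag. The log2 processed intensity was quantile normalized, and spots of a probe were averaged. Genotype was the only term in limma 3.58.1 (R 4.3.3, data.table version 1.17.8), with Benjamini-Hochberg adjustment over 56601 probes that had at least 2 values per genotype. Probes were named through RefSeq accessions on GRCm38.p6 (33767, or 59.7%), and the brightest probe, by its mean over 6 arrays, stood for a gene in lists. The array design uses another build, so no probe coordinates are given. Well above background means that the scanner software flagged more than 50% of a probe's spots. Summed list levels are log2 of summed normalized intensities. Plots used matplotlib 3.10.9 under Python 3.11.15. Precision is limited by the 3 arrays per group.

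Named genes were all member probes, the called members of each list with the largest change (up to 5), its 2 brightest genes (for lists of other cell types only those a result turned on), and the 5 genes most like the brightest erythroid and platelet probes, among named genes well above background on all 6 arrays. The members and the 13 gene lists were chosen with earlier results of these data known. Same-numbered samples of the groups had deviations from their group means that correlated at 0.01 to 0.05, so the numbers were not taken to pair the samples. In simulated data of 3 arrays against 3 with 200 of 56601 probes changed, 82.5% were called (100% where the log2 change was 2, 65% where it was 1), and 8 of 173 calls were false.

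Alternatives were a shift to the 75th percentile, the authors' values, normexp background correction with an offset of 50 on median spot intensities, the removal of probes flagged above background on fewer than 3 arrays, outlier spots kept, trend and robust variance, a block for the replicate number or for the slide row, the omission of each sample in turn, no fold threshold, and a gene level averaged over its probes.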

Additional observations from a re-analysis of the deposited data

How the results depend on the processing

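The 3 called member probes kept their direction under all 15 settings, and 0 member probes were called lower under any. With the replicate number as a block, 0 member probes and 0 other globins were called higher in place of 3 and 3, and 2 probes higher and 40 lower among all probes. The dimmer *Hba-a1* and the *Hba-a2* probe then both had an adjusted p of 0.0574 by limma, and *Alas2* of 0.113, and the block leaves 2 residual degrees of freedom for genotype. With a block for slide row, a fit that rests on B41KO replicate 1, 1 other globin was called (*Hbb-bt*), 184 probes were called higher and 260 lower, and *Alas2* was not called (0.49, adjusted p = 0.213 by limma). Leaving out each sample in turn gave 2 called member probes throughout, 1 to 3 other globins, and among all probes 242 to 513 higher and 550 to 1024 lower. Normexp correction gave 423 higher and 1077 lower, and *Alas2* at 0.32 then missed the fold threshold. The 75th percentile shift left *Hbb-b1* uncalled (0.67, adjusted p = 0.0516 by limma). Some values that were not called changed sign: *Hbq1a* with the 75th percentile shift (0.013), *Hbb-y* (-0.050) and *Hbq1b* (-0.0013) with normexp, and *Itga2b* (-0.12), *Hbb-y* (-0.10) and *Hba-x* (0.083) with the slide row. With single samples left out *Itga2b* ranged from -0.0092 to 0.19, *Hbb-bh2* from -0.028 to 0.14, *Hbq1b* from -0.12 to 0.14 and *Hbb-y* from -0.0090 to 0.23. None of these probes was called under any setting. Apart from the replicate block, the number of genes called lower ranged from 0 to 3 for the red cell list, 0 to 2 for haem synthesis, 1 to 4 for haem uptake and breakdown, 0 to 4 for the platelet list, 1 to 2 for the transcription factors, 0 to 1 for microglia, 9 to 10 for neutrophils, 1 to 7 for border macrophages, 0 to 2 for B cells, 0 to 1 for T and NK cells and 1 to 3 for basophils and mast cells. The number called higher ranged from 0 to 1 for the red cell list, the platelet list, the transcription factors and T and NK cells. With that block 6 neutrophil markers were called lower and 0 genes of the other lists. The causes of these changes were not tested. Dim probes limit what can be read of *Ppbp*, *Hbb-bh1* and *Epb42*.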
